A study of Mus musculus with 21 samples.

Results

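The comparison asked what anti-LTBR, an antibody that stimulates the lymphotoxin beta receptor (LTBR), added to tumour necrosis factor alpha (TNF) in cultured smooth muscle cells of the mouse aorta at 24 h. It set the 3 arrays of cells given TNF and the antibody together (the combination) against the 3 TNF arrays that carry the same numbers, 1 to 3, in the sample titles. These are 6 of the 21 arrays of the series. The mice were C57BL/6J males 10 to 12 weeks old, and all agents were given in PBS. The combination received TNF at 1 ng/ml and anti-LTBR at 10 µg/ml, and the TNF group received TNF at 1 ng/ml alone. For the effect of the antibody without TNF, 3 arrays of cells given anti-LTBR alone at 10 µg/ml were set against 3 arrays of cells given PBS, also numbered 1 to 3 and taken at 24 h. The labels do not say whether a number stands for a culture, an animal or a day. The p-values measure the spread left between these samples after differences between groups and between numbers are removed, pooled over all groups in the fit. That spread may be technical. The number of arrays limits the precision. The question, from the title of the series, is whether such cells turn into lymphoid tissue organizers when both receptors signal to NF-kB.

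LTBR belongs to the TNF receptor superfamily, and stromal cells use it to build lymph nodes and other lymphoid tissue. It activates the canonical NF-kB pathway, in which IkB proteins are degraded, and the non-canonical pathway, in which the kinase encoded by Map3k14 drives the processing of the Nfkb2 product to a form that pairs with RelB. TNF acts mainly through the canonical pathway. Organizer stromal cells make chemokines and adhesion molecules that gather lymphocytes.

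With the antibody added to TNF, chemokine, NF-kB, immunoproteasome and cell cycle genes were among those that rose, and 8 of 16 Id, BMP and adipogenic genes fell. Of 12278 tested genes, 324 rose (2.64 percent) and 287 fell (2.34 percent) in the combination relative to TNF alone, at an adjusted p under 0.05 in limma. At least a 2-fold change was seen for 40 of the genes that rose and 6 of those that fell. The median change of all tested genes was 0.02 on the log2 scale, with quartiles of -0.09 and 0.14. Each called gene had the same direction in 3 of 3 pairs of arrays with the same number. That agreement is largely set by the calls, which were made on the same arrays. Among all tested genes, 2837 were higher and 2272 lower in 3 of 3 pairs. The 3 combination arrays all lay above the 3 TNF arrays for 175 of the 324 genes that rose, where 5.46 percent of all tested genes did so, and all below them for 103 of the 287 that fell, where 3.24 percent did so. These counts of called genes are also drawn from the arrays that gave the calls. The calls rest on comparing arrays within a number: without the number in the model 5 genes rose and 2 fell, and without the arrays numbered 1 the counts were 18 and 9. Without the combination array numbered 1, 2 or 3, the genes that rose numbered 127, 90 and 251 and those that fell 123, 91 and 210. Without the TNF array numbered 1, 2 or 3, they numbered 107, 193 and 225 and 84, 147 and 232.

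Of the 20 largest rises, 4 were chemokine genes. Cxcl10, whose product attracts activated T cells, had signals of 1571, 2064 and 1187 on the combination arrays numbered 1, 2 and 3, against 190.5, 258.4 and 164 on the TNF arrays. The groups did not overlap, and the rise of 2.90 ± 0.34 (log2, SE) was the largest of all called genes (7.48-fold, adjusted p = 0.00143). Ccl5, which attracts T cells and monocytes, had signals of 5704, 5885 and 4115 in the combination, against 1471, 1535 and 1366 with TNF alone, again with no overlap (1.82 ± 0.18, adjusted p = 0.00106). Both genes had also risen with TNF alone over PBS, a comparison that shares the TNF arrays, but the size of that rise depends on the pseudocount. On the PBS arrays Cxcl10 had signals of 13.9, 32.7 and 77.7 and Ccl5 of 13.2, 10.1 and 17, where the array medians were 111.3 to 139. Ccl9, a chemokine of myeloid cells, differed in this: it changed by 0.43 with TNF alone (not called) and had signals of 4773, 2809 and 2903 in the combination, against 1302, 1060 and 1124 with TNF alone (1.54 ± 0.14, adjusted p = 0.000855). A second Ccl9 probe set changed by 1.66.

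Ccl7 and Ccl2, chemokines of monocytes, rose by 1.36 ± 0.19 and 1.19 ± 0.18 (adjusted p = 0.00297 and 0.00396). Ccl2 signals were 8410, 6166 and 4666 in the combination and 4103, 2916 and 1683 with TNF alone, without overlap, whereas the Ccl7 ranges overlapped because the TNF array numbered 1 (1812) lay above the combination array numbered 3 (1495). Cx3cl1, which encodes a membrane-bound chemokine, had signals of 3255, 3326 and 1601 in the combination, against 1148, 1160 and 1059 with TNF alone (1.20 ± 0.16, adjusted p = 0.0023). The gain of Cx3cl1 was thus smaller on the arrays numbered 3. Cxcl16, the membrane-bound ligand of CXCR6, rose by 0.82 ± 0.11 (adjusted p = 0.0023), and Ccl17, a chemokine of CCR4-bearing T cells, by 0.64 ± 0.15 (adjusted p = 0.0301). Of the 9 tested CC chemokines 5 rose and 0 fell (median 0.64), and of the 6 tested CXC and CX3C chemokines 3 rose and 0 fell (median 0.62). The other members ranged from -0.13 for Ccl27a to 0.12 for Ccl4, and from -0.34 for Cxcl14 to 0.41 for Cxcl1. Without the arrays numbered 1, 4 CC and 1 CXC or CX3C chemokine rose, and without the number in the model 2 and 1. In RNA from a whole culture, more cells that express a gene and more RNA per cell cannot be told apart. Fold changes of dim genes are understated, since they were computed on log2(signal + 10.2).

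**Figure D1:**
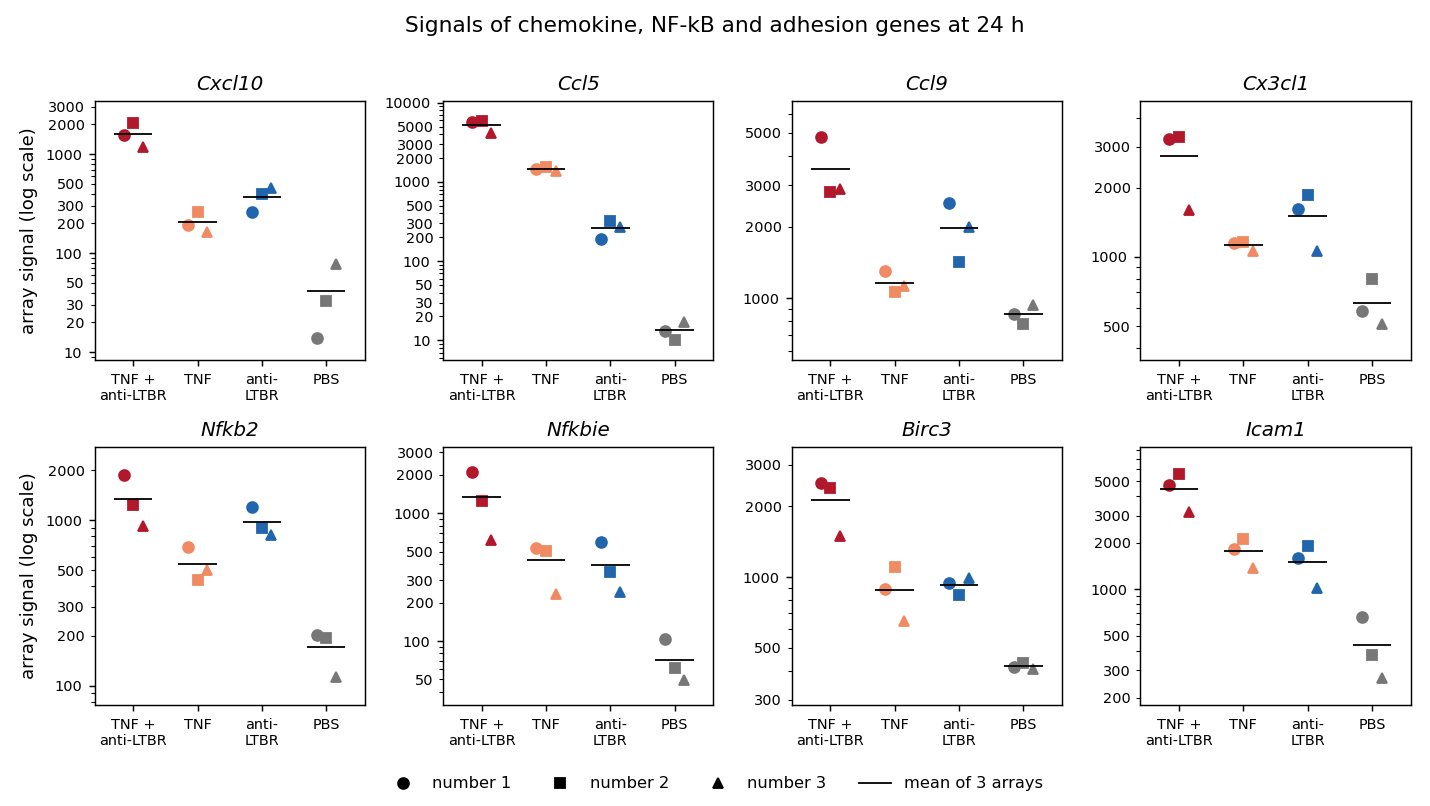
Signals (log axis) of 8 genes on the 24 h arrays numbered 1 to 3, for TNF plus anti-LTBR, TNF, anti-LTBR and PBS; symbols give the number and lines the mean of 3 arrays. In each of the 8 genes the 3 combination arrays lay above the 3 TNF arrays, and Cxcl10 had the widest gap, with 1187 to 2064 against 164 to 258.4.

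Of the 10 tested genes of the non-canonical NF-kB pathway 5 rose and 0 fell, with a median of 0.32. Nfkb2, which encodes the precursor p100 that is processed in this pathway, had signals of 1865, 1245 and 919 in the combination, against 694.3, 433.4 and 501.1 with TNF alone (1.26 ± 0.15, adjusted p = 0.00143), and a second probe set changed by 0.52. The groups did not overlap. Its partner gene Relb rose by 0.52 ± 0.12 (adjusted p = 0.0328), with overlapping ranges of 652.9 to 1158 in the combination and 505.6 to 691.7 with TNF alone. Birc3 and Birc2, which encode ubiquitin ligases of the complex that degrades the product of Map3k14, rose by 1.26 ± 0.17 and 0.88 ± 0.12 (adjusted p = 0.00235 and 0.00293). Tank, which encodes a TRAF-binding adaptor, rose by 0.33 ± 0.07 (adjusted p = 0.0259). The members not called were Traf2 (0.30), Map3k14 (0.26, and 1.36 on a second probe set), Ltbr itself (0.07 ± 0.08), Otud7b (0.06) and Tnfrsf12a (0.06). Ltbr signals of 1315 to 1581 in the combination and 1157 to 1523 with TNF alone overlapped. Without the arrays numbered 1, 0 of the 10 were called, although the median was 0.33, and with single arrays left out 3 or 4 were.

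Among genes of the canonical pathway, Nfkbie, which encodes the inhibitor IkB epsilon, had signals of 2118, 1254 and 613.5 in the combination, against 539, 507.3 and 234.3 with TNF alone. This rise of 1.53 ± 0.17 (adjusted p = 0.00133, second probe set 1.06) was about the size of that of Ccl9, and the groups did not overlap. Ikbkb, a subunit of the IkB kinase, rose by 0.36 ± 0.09 (adjusted p = 0.0483), while its other 2 probe sets changed by 0.03 and 0.21. The inhibitor gene Nfkbia was not called (0.15 ± 0.04, adjusted p = 0.0578). Of 13 canonical subunits, kinases and inhibitors 2 rose and 0 fell (median 0.15), and of 15 genes of A20 and NF-kB feedback 2 rose (median 0.04), Tnfaip3, the A20 gene, by 0.80 ± 0.13 (adjusted p = 0.00688) and its partner gene Tnip1 by 0.50 ± 0.11 (adjusted p = 0.0253). Nfkb1, Chuk and Traf3 were not analysed here.

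Of the 12 tested lymphoid tissue organizer genes 5 rose and 0 fell, with a median of 0.18. Icam1, an adhesion molecule for leukocytes, had signals of 4720, 5540 and 3160 in the combination, against 1816, 2125 and 1377 with TNF alone (1.31 ± 0.17, adjusted p = 0.0023). Cxcl13, the B cell chemokine gene, had signals of 405.5, 660.0 and 509.1 in the combination, against 161.6, 228.9 and 361.8 with TNF alone (1.08 ± 0.20, adjusted p = 0.0125, second probe set 1.54). Neither gene's groups overlapped, and Cxcl13 had not been called with TNF alone (0.59) or with the antibody alone (0.25). Vcam1, the other main adhesion molecule of organizers, had signals of 10501, 11364 and 8981 in the combination, against 7313, 8134 and 6610 with TNF alone, a rise of 0.48 ± 0.07 (adjusted p = 0.00293). Nfkb2 and Relb, described above, complete the 5. The cytokine gene Il7 (0.14), Bst1 (0.13), Pdpn (0.11), Tnfsf13b (0.22), Tnfrsf11b (-0.26), the abundant chemokine gene Cxcl12 (-0.06) and Ltbr (0.07) were not called. Ccl19 and Ccl21a were not analysed here. Of 12 leukocyte adhesion molecules, Icam1, Vcam1 and the hyaluronan receptor gene Cd44 (0.47 ± 0.08, adjusted p = 0.00656) rose and 0 fell (median 0.10). Without the arrays numbered 1, 1 organizer gene was called, and with single arrays left out 3 to 5 were.

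The promoters of 4 of these genes are shown because they were the chemokine and NF-kB genes among the 20 largest rises whose window held a match to the consensus kB motif, the site that NF-kB dimers bind. Each window runs from 250 bases before the start of the gene to 50 after it, on RefSeq's mouse build GRCm38.p6, 5′ to 3′ along the gene, and capitals mark the matches on either strand, which may overlap each other. The windows lie at chr5:92348840-92349139 (minus strand) for Cxcl10, chr11:83578587-83578886 (minus strand) for Ccl9, chr17:45555450-45555749 (plus strand) for Nfkbie and chr19:46304487-46304786 (plus strand) for Nfkb2, which has 3 windows in the table.
Cxcl10: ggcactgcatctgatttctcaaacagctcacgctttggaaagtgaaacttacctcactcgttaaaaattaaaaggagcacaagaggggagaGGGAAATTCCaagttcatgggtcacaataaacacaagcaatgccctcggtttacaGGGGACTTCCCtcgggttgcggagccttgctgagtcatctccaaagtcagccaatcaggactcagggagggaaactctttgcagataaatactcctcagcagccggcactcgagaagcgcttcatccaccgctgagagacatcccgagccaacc
Ccl9: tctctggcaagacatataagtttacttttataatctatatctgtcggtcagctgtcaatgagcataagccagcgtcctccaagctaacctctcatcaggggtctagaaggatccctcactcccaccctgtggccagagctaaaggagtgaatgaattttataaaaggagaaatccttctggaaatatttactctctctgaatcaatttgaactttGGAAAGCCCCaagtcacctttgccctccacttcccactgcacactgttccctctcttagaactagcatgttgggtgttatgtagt
Nfkbie: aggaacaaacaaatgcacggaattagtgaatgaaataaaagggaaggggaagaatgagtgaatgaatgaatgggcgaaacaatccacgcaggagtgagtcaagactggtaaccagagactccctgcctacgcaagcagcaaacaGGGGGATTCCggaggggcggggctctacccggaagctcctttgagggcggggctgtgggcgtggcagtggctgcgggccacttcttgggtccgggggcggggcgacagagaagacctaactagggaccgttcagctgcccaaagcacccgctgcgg
Nfkb2: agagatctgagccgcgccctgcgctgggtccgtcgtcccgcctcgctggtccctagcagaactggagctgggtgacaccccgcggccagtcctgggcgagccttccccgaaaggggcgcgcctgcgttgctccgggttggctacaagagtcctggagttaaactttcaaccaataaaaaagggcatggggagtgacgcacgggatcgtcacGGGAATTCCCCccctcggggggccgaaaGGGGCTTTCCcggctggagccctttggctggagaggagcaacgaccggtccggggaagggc
Cxcl10 and Nfkb2 had 2 separate stretches in capitals each, and Ccl9 and Nfkbie 1 each. Of the 20 largest rises, 17 had a window in the table and 6 had a match. A match was found in 16 percent of the 350 windows of genes that rose, 8.83 percent of the 317 windows of genes that fell, 10.5 percent of the windows of tested genes and 8.46 percent of all 32851 windows. A match is a description of these letters and no measurement of binding. No window was in the table for Ccl5, Ccl7 and Gem.

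The 20 largest rises, from 1.26 to 2.90, also held genes outside these pathways. Of the 20, 16 had groups that did not overlap, where the combination lay wholly above TNF for 5.46 percent of all tested genes. The 20 were chosen by their rise on these same arrays, which favours such separation. Scube3, which encodes a secreted glycoprotein with EGF-like repeats, had signals of 532.1, 1943 and 1115 in the combination, against 117.1, 475.3 and 404 with TNF alone (1.85 ± 0.19, adjusted p = 0.00106). Stx11, a syntaxin gene of immune and vesicle traffic, had signals of 1629, 1543 and 1139 in the combination, against 613.7, 586.6 and 544.8 with TNF alone (1.27 ± 0.13, adjusted p = 0.00106, second probe set 1.03). Both genes were raised without overlap of the groups. Gem, a small GTPase that restrains calcium channels, rose by 1.68 ± 0.29, Stxbp6, a syntaxin-binding protein gene, by 1.27 ± 0.24, and Itih5, which encodes a hyaluronan-binding matrix protein, by 1.26 ± 0.23 (adjusted p = 0.00911, 0.0141 and 0.0118). Several of the largest log2 changes belonged to dim probe sets. Spib, an ETS transcription factor of lymphoid cells, rose by 1.93 ± 0.45 (adjusted p = 0.0321), with 1085, 364.7 and 158.6 in the combination, against 115.4, 72.8 and 109 with TNF alone. Nckap5 (1.93), the odorant receptor gene Olfr870 (1.91) and Lbhd2 (1.32) had combination signals of at most 234.2, where the median over tested genes of the mean TNF signal was 610. Of the 20 genes, 11 also rose with the antibody alone, where 1.67 percent of all tested genes rose, and 9 also rose with TNF alone over PBS, where 2.69 percent rose.

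Genes of interferon response and antigen presentation, many of which TNF alone had raised, were higher in most pairs, but few passed the test. The immunoproteasome subunits, which cut peptides for MHC class I, rose in 3 of 4 cases: Psmb9 by 1.23 ± 0.27, Psmb10 by 1.04 ± 0.20 and Psmb8 by 0.87 ± 0.22 (adjusted p = 0.0268, 0.0153 and 0.0422). Psmb10 signals were 2658, 2812 and 1594 in the combination and 1311, 1292 and 790.4 with TNF alone. Psme1, which encodes a proteasome activator subunit, was not called (0.10), and the median was 0.96. Of 11 MHC class I and loading genes, the peptide transporter genes Tap1 (0.61 ± 0.12) and Tap2 (0.60 ± 0.13) and the tapasin gene Tapbp (0.23 ± 0.06) rose and 0 fell (adjusted p = 0.0174, 0.0268 and 0.0423, list median 0.29). Of 27 subunit genes of the constitutive proteasome 0 were called, and their median was -0.01. With single arrays left out, 0 to 2 immunoproteasome genes and 0 to 5 MHC class I genes were called.

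Of 9 interferon-inducible GTPase genes, which defend against intracellular pathogens, all 9 were higher in 3 of 3 pairs (median 0.72), but 2 rose in the test, Gbp3 (1.04 ± 0.23, adjusted p = 0.025) and Ifi47 (0.68 ± 0.14, adjusted p = 0.019). Over all 12278 tested genes, 2837 were higher in 3 of 3 pairs. Of 27 antiviral genes 21 were higher in 3 of 3 pairs (median 0.46) and 3 rose in the test. These were Parp14 (1.17 ± 0.15, adjusted p = 0.0021), the antiviral radical SAM enzyme gene Rsad2 (1.13 ± 0.26, adjusted p = 0.0328) and Ddx58, which encodes the RNA sensor RIG-I (0.70 ± 0.14, adjusted p = 0.0188). In a fit of the 6 arrays alone, with their own estimate of the spread, 8 of the 9 GTPase genes and 17 of the 27 antiviral genes rose. Without the arrays numbered 1, 0 of either list rose in the fit of all groups, and without the combination array numbered 3, 6 GTPase genes did. All 9 GTPase genes and 23 of the 27 antiviral genes had risen with TNF alone over PBS, with medians of 1.45 and 1.22. Probe sets of the GTPase and MHC class I families may cross-hybridise, since their members are similar in sequence. The transcription factor gene Irf1 rose by 0.46 ± 0.07 (adjusted p = 0.00539), the single call among 13 IRF and STAT genes (median 0.13).

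Receptors and cytokines of the TNF and innate immune families changed in a few members. Tnfrsf9, a costimulatory receptor of the TNF receptor superfamily, had signals of 774.1, 654.8 and 705.7 in the combination, against 355.1, 362.8 and 339.2 with TNF alone (0.99 ± 0.19, adjusted p = 0.0129). Tnfrsf1b, the second TNF receptor gene, rose by 0.86 ± 0.19 (adjusted p = 0.0246, second probe set 1.09), and with Tnfrsf9 made up the 2 of 14 TNF superfamily genes that rose (median 0.16). The groups did not overlap for either gene. The pattern receptor genes Tlr2 (0.49 ± 0.12) and Nod1 (0.47 ± 0.10) rose out of 15 Toll-like receptors and nucleic acid sensors (median 0.12). Of 13 cytokines and growth factors (median 0.02) Lif, of the interleukin 6 family (0.75 ± 0.15), and Csf1, the macrophage growth factor gene (0.26 ± 0.05), rose, while Il6 had a change of -0.47 ± 0.14 and was not called (adjusted p = 0.0818). Of 15 caspase and cell death genes (median 0.23) the inflammasome adaptor gene Pycard (0.73), the necroptosis effector gene Mlkl (0.50) and Casp8 (0.36) rose. Several of these calls were fragile. Out of 21 alternative settings, Tlr2 lost its call under 14, Nod1 under 11, Casp8 under 16, Mlkl under 13 and Pycard under 11. Among 15 immediate early genes (median 0.17) the AP-1 genes Fosl1 (0.83), Junb (0.51) and Jun (0.48) and Myc (0.49) rose, and Fos (-0.62 ± 0.11, adjusted p = 0.00997) and the phosphatase gene Dusp1 (-0.51) fell.

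Cell cycle genes moved up with the antibody in both the replication and the mitosis lists. Of 23 genes of DNA replication and S phase 11 rose and 0 fell (median 0.52), and of 19 mitosis genes 10 rose and 0 fell (median 0.51). Of these 42 genes, 38 were higher in 3 of 3 pairs, as were 2837 of all 12278 tested genes. Uhrf1, which maintains DNA methylation at replication, had signals of 647.3, 1030 and 405.1 in the combination, against 278.5, 438.6 and 202.3 with TNF alone (1.12 ± 0.15, adjusted p = 0.0023, second probe set 0.87). Mcm7, a subunit of the replicative helicase, had signals of 2260, 2790 and 1875 in the combination, against 1359, 1779 and 1207 with TNF alone (0.67 ± 0.08, adjusted p = 0.00133, other probe sets 0.47 to 0.63). The groups did not overlap for Mcm7, and for Uhrf1 they overlapped because the TNF array numbered 2 lay above the combination array numbered 3. Other helicase genes that rose were Mcm3 (0.83), Mcm5 (0.77), Mcm2 (0.66) and Mcm6 (0.59), with the replication clamp gene Pcna (0.38 ± 0.05, adjusted p = 0.00235) and the ribonucleotide reductase genes Rrm2 (0.73) and Rrm1 (0.38).

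Of the mitosis genes, Bub1b and Bub1, kinases of the spindle checkpoint, rose by 1.57 ± 0.30 and 0.88 ± 0.15 (adjusted p = 0.0132 and 0.00775), where a second Bub1b probe set changed by 0.73. Top2a, the topoisomerase of chromosome condensation, had signals of 1042, 2061 and 1058 in the combination, against 641.9, 1177 and 726.4 with TNF alone (0.68 ± 0.11, adjusted p = 0.00684), although a second probe set changed by 0.03. Prc1, which bundles the microtubules of the central spindle, rose by 0.52 ± 0.08 (adjusted p = 0.00568, second probe set 0.81). Aurkb (0.76), Mki67 (0.71), Nusap1 (0.67), Ccna2 (0.54), Kif11 (0.51) and Cdk1 (0.51) rose as well, and the condensin gene Smc2, on neither list, rose by 0.67 ± 0.08 (adjusted p = 0.00143). Ccnf, a cyclin gene, and Dtl, a substrate receptor of a replication-coupled ubiquitin ligase, were among the 20 largest rises at 1.49 and 1.34. However, Ccnf lost its call under 11 of the 19 alternative settings that tested it, and the 2 other Dtl probe sets changed by 0.17 and 0.21.

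With TNF alone over PBS, 0 of the 42 cell cycle genes rose and 11 fell, where 2.0 percent of all tested genes fell; this comparison shares the TNF arrays. Against the PBS array of the same number, the median of the 42 genes was 0.19, 0.36 and -0.15 in the combination on numbers 1, 2 and 3, and -0.39, -0.16 and -0.62 with TNF alone. With the antibody alone it was 0.20, 0.13 and -0.18. On each number the combination thus lay above TNF alone. Without the arrays numbered 1, 0 of the 42 genes were called, while the medians of the S phase and mitosis lists were 0.46 and 0.45. Without the number in the model 0 were called as well, and with single arrays left out 5 to 10 S phase and 3 to 9 mitosis genes were.

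**Figure D2:**
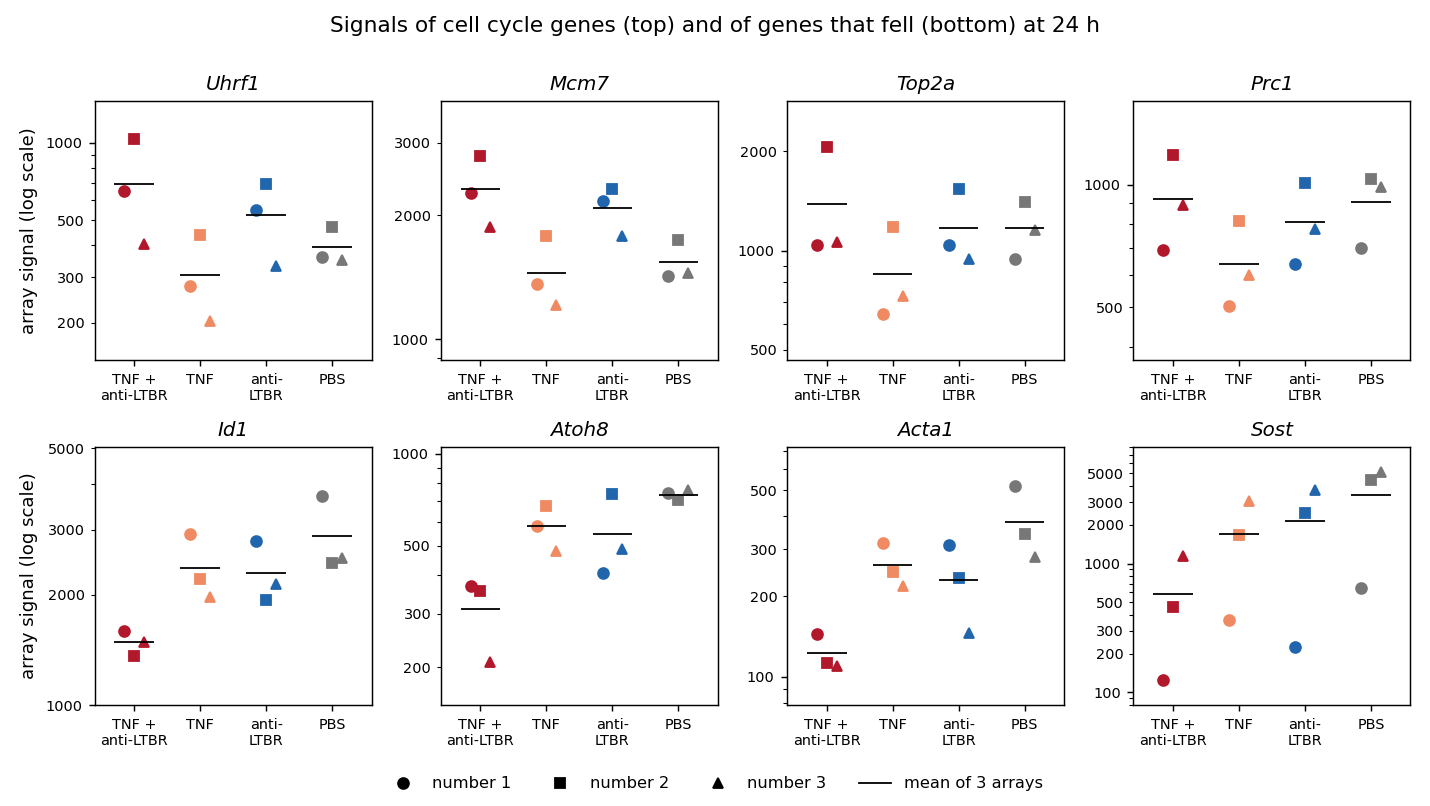
Signals (log axis) of 4 cell cycle genes and of 4 genes that fell, on the 24 h arrays numbered 1 to 3 of TNF plus anti-LTBR, TNF, anti-LTBR and PBS; symbols give the number and lines the mean of 3 arrays. Within each number the combination lay above TNF alone for the cell cycle genes and below it for Id1, Atoh8, Acta1 and Sost.

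The falls were smaller than the rises and included most Id genes. Id1, a classic target of BMP signalling whose product blocks helix-loop-helix transcription factors, had signals of 1598, 1365 and 1490 in the combination, against 2933, 2204 and 1966 with TNF alone (-0.65 ± 0.09, adjusted p = 0.00254). The groups did not overlap. Its relatives Id4 (-0.52), Id2 (-0.37) and Id3 (-0.28) fell too, as did the BMP ligand gene Bmp4 (-0.35 ± 0.06, adjusted p = 0.00549), the inhibitory Smad gene Smad6 (-0.34), the lipoprotein lipase gene Lpl (-0.55) and Atoh8, which encodes a helix-loop-helix factor. Atoh8 had signals of 369.9, 355 and 208.3 in the combination, against 582.4, 673.7 and 480 with TNF alone (-0.90 ± 0.19, adjusted p = 0.0211), without overlap. In all, 8 of the 16 tested Id, BMP and adipogenic genes fell and 0 rose (median -0.36). Lower in 3 of 3 pairs were 12 of the 16, against 2272 of all 12278 tested genes. Without the arrays numbered 1, 0 were called (median -0.34), and with single arrays left out 2 to 6 were.

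Smooth muscle contractile genes lay slightly lower. Of 24 tested genes 3 fell and 0 rose (median -0.17): the tropomyosin gene Tpm2 (-0.23 ± 0.04, adjusted p = 0.00938), the vinculin gene Vcl (-0.20 ± 0.04, adjusted p = 0.0268) and the integrin gene Itga8 (-0.18 ± 0.04, adjusted p = 0.0283). The other 3 Tpm2 probe sets ranged from -0.44 to 0.04. With the arrays scaled to equal medians 0 of the 24 were called. Out of 21 alternative settings, Itga8 lost its call under 17, Vcl under 14 and Tpm2 under 7. The smooth muscle actin gene Acta2 had signals of 16442, 16629 and 19662 in the combination, against 18877, 17535 and 18990 with TNF alone, and was not called (-0.08, and -0.46 and -0.38 on 2 other probe sets). Of 15 smooth muscle phenotype genes (median -0.07) Klf4 (-0.24 ± 0.05, second probe set 0.19) and Mef2c (-0.33 ± 0.08) fell, and of 27 extracellular matrix genes (median -0.10) Col8a1 (-0.23 ± 0.03) fell. With TNF alone over PBS 9 of the 24 contractile genes had fallen (median -0.20).

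Acta1, the skeletal muscle actin gene, had signals of 145.1, 113 and 109.8 in the combination, against 318.5, 247.6 and 219 with TNF alone (-1.03 ± 0.15, adjusted p = 0.00314), and the groups did not overlap. Sost, which encodes the Wnt inhibitor sclerostin, had signals of 124.2, 464.1 and 1147 in the combination, against 362.6, 1661 and 3062 with TNF alone (-1.57 ± 0.24, adjusted p = 0.00439, second probe set -0.78). Its level differed widely between numbers, so the groups overlapped, yet it was lower in the combination in each pair. F3, the tissue factor gene that starts coagulation, fell by 0.89 (SE 0.12, adjusted p = 0.003), and Rgcc, a cell cycle regulator gene, by 1.00 (adjusted p = 0.00693, second probe set -0.38). The imprinted genes Peg3 and Plagl1 fell by 0.91 and 0.82 (adjusted p = 0.00143 and 0.0243). Fgl2, a fibrinogen-like protein gene, fell by 0.88 on the probe set used, while a second changed by -0.07. Chdh (-1.79), which encodes choline dehydrogenase, the zinc finger factor gene Maz (-1.17), Gramd1c (-1.24) and Gm5617 (-0.84) complete the 12 largest falls; all 4 had signals of at most 263.3 on these 6 arrays. The stress factor gene Atf4 and its target Chac1 fell by 0.30 and 0.48 (adjusted p = 0.00691 and 0.024), 2 of 19 genes of that response (median -0.17). The prostaglandin synthase genes Ptgs2 (-0.49) and Ptgis (-0.23) and the endothelin gene Edn1 (-0.39) fell, and the prostaglandin receptor gene Ptger4 rose (0.56), among 11 vasoactive genes (median -0.06).

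**Figure D3:**
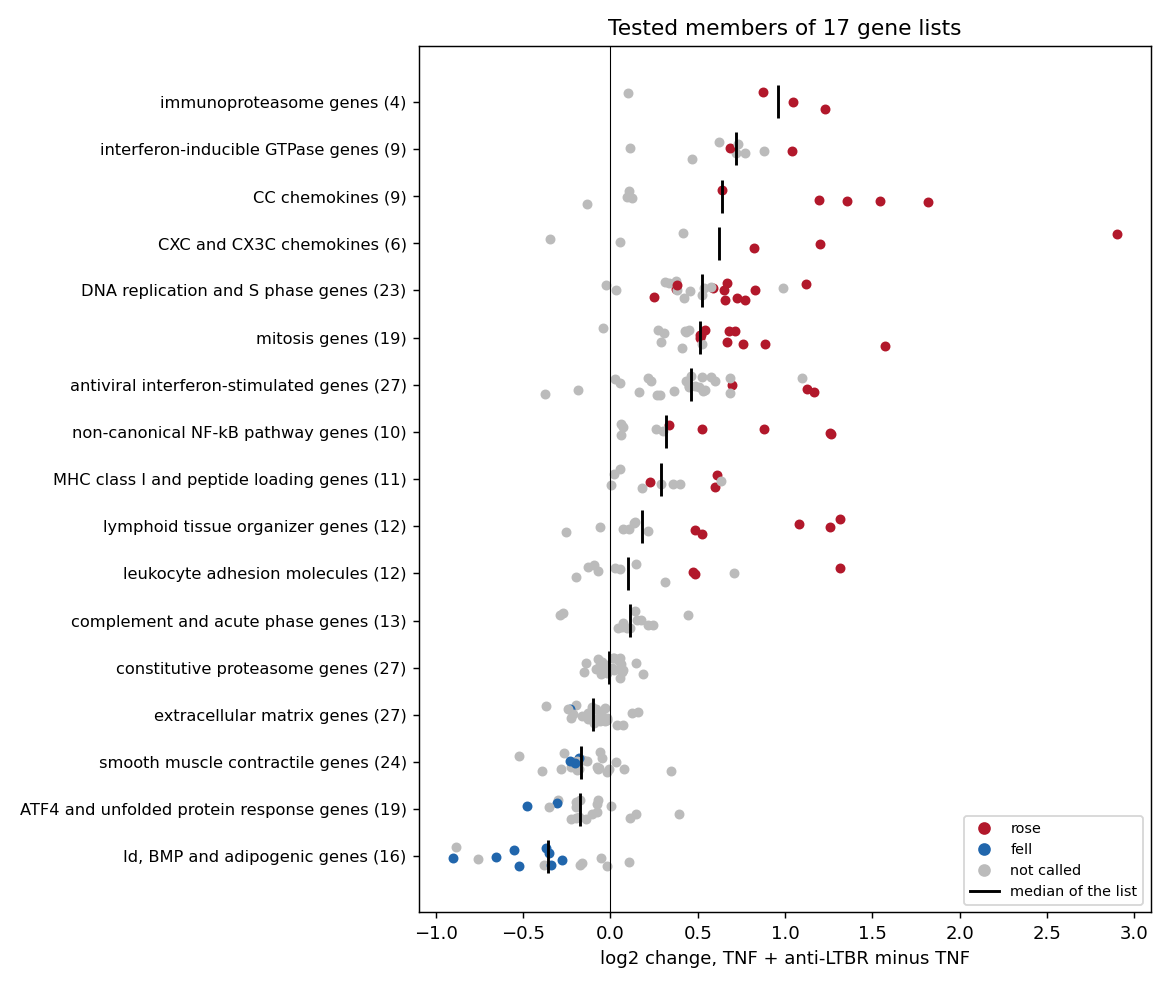
Log2 change of each tested member of 17 gene lists in TNF plus anti-LTBR minus TNF (x axis), with rises in red, falls in blue, genes not called in grey and the median of each list as a black line; the number of tested members stands in parentheses. Medians ran from 0.96 for the immunoproteasome to -0.36 for the Id, BMP and adipogenic genes, where all 12278 tested genes had a median of 0.02.

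Apart from marker lists, the lists with 0 calls in either direction were complement and acute phase genes (13 tested, median 0.11), MHC class II genes (4 tested, median 0.08), sterol synthesis and uptake genes (17 tested, median 0.05) and the constitutive proteasome. Over all tested genes 2.64 percent rose and 2.34 percent fell, so 0 calls in lists this small does not set them apart. Complement and acute phase genes had a median of 0.79 with TNF alone over PBS, where 8 of 13 rose. Cfb, complement factor B, for example rose by 1.57 with TNF alone and was not called for the addition of the antibody (0.45 ± 0.20, adjusted p = 0.242). Of 16 matrix protease and inhibitor genes the aggrecanase gene Adamts4 rose (0.68 ± 0.14, list median 0.04), and of 15 oxidative stress genes the thioredoxin reductase gene Txnrd1 did (0.30 ± 0.07, list median 0.01).

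Most genes called for the addition of the antibody to TNF had the same direction with the antibody alone, while agreement over all tested genes was weaker. The mitosis list differed, with a median of 0.51 in the presence of TNF and -0.03 in its absence. The comparisons of the combination with TNF and of anti-LTBR alone with PBS share no array. Across the 12278 tested genes, which are not independent replicates, the log2 changes had a Pearson correlation of 0.40 and a Spearman correlation of 0.34, and 62.6 percent had the same sign. Of the 324 genes that rose over TNF, 295 were also higher with the antibody alone (91.0 percent), with a median of 0.55 in the presence of TNF and 0.29 in its absence. Of the 287 that fell, 271 were lower with the antibody alone (94.4 percent), with medians of -0.34 and -0.20. The antibody alone raised 205 genes (1.67 percent) and lowered 116 (0.945 percent), or 194 and 33 with the arrays scaled to equal medians. The 2 sets of rises shared 108 genes, 33.3 percent of those with TNF and 52.7 percent of those without. The 2 sets of falls shared 78, 27.2 and 67.2 percent, and 0 genes were called in opposite directions. The larger size with TNF for genes called with TNF is partly fixed by that choice: the 205 genes that rose with the antibody alone had a median of 0.38 with TNF and 0.57 without.

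**Figure D4:**
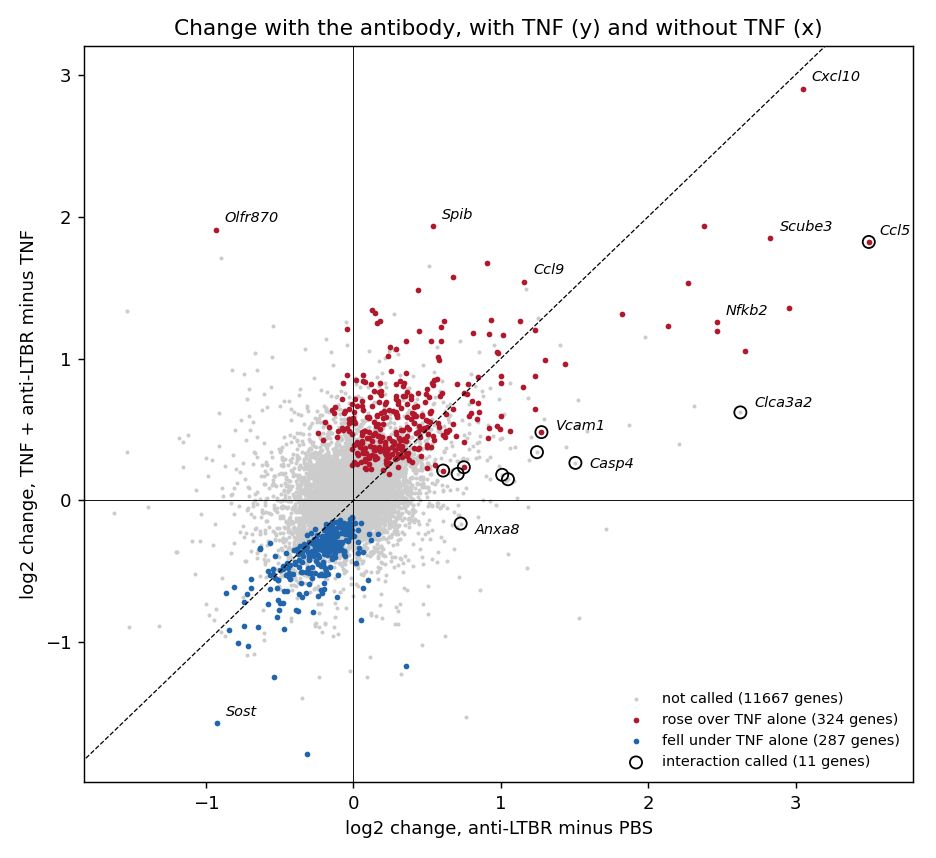
Log2 change with the antibody in the presence of TNF (TNF plus anti-LTBR minus TNF, y axis) against its absence (anti-LTBR minus PBS, x axis) for 12278 genes; red and blue points are the 324 rises and 287 falls over TNF, circles the 11 genes called in the test of the difference, and the dashed line marks equal changes. Cxcl10 lies near the line, at 2.90 and 3.05, and the 11 circled genes lie below it.

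A test of the difference between these effects, the interaction term of the same fit, called 11 genes (0.0896 percent), all with a smaller change in the presence of TNF; 908 genes had an unadjusted p under 0.05. They include Nfkbia (0.15 with TNF and 1.05 without, a difference of -0.90 ± 0.06, adjusted p = 5.21e-05), Vcam1 (0.48 and 1.28, difference -0.79 ± 0.09, adjusted p = 0.0079) and the inflammatory caspase gene Casp4 (0.26 and 1.51, difference -1.24 ± 0.16, adjusted p = 0.0139). Ccl5 was called as well, but its change without TNF is set against the PBS signals near the pseudocount given above, and its difference ranged from -2.35 to -0.48 over the alternative settings. For Cxcl10 the changes were 2.90 with TNF and 3.05 without (difference -0.15 ± 0.48), with the PBS signals again below the array medians. For Nfkb2 they were 1.26 with TNF and 2.46 without, a difference of -1.21 that was not called (adjusted p = 0.084). For the 42 cell cycle genes the median difference ran the other way, at 0.48 against 0.02 over all tested genes, but 0 were called singly. Prc1 was nearest, with 0.52 in the presence of TNF and -0.16 in its absence (difference 0.68 ± 0.12, adjusted p = 0.0795).

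**Figure D5:**
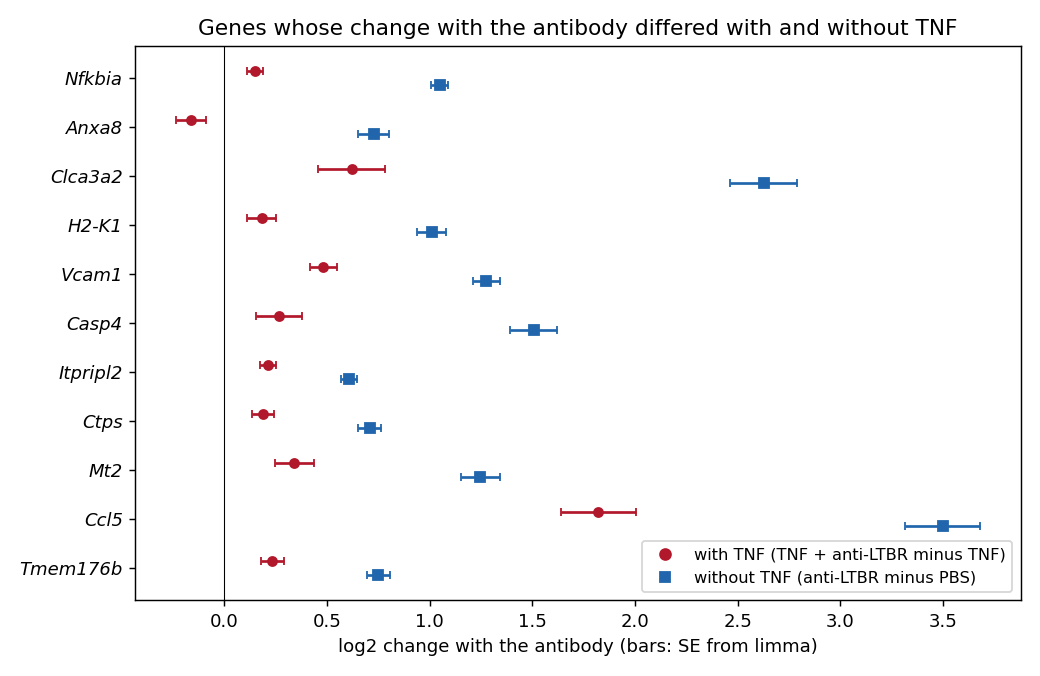
Log2 change with the antibody (x axis, bars SE from limma) for the 11 genes called in the test of the difference, in the presence of TNF (red circles, TNF plus anti-LTBR minus TNF) and in its absence (blue squares, anti-LTBR minus PBS). All 11 genes changed less with TNF, Anxa8 lay below 0 with TNF, and the change of Ccl5 without TNF is set against PBS signals of 10.1 to 17.

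Arrays that the fit did not use gave the antibody's effect without TNF at 24 h and at earlier times, each with 1 array per group. On the 24 h arrays numbered 0, 281 of the 324 genes that rose over TNF were higher with anti-LTBR than with PBS (86.7 percent, against 46.4 percent of all tested genes), and 250 of the 287 that fell were lower (87.1 percent, against 53.6 percent of all). At 6 h, with 1 array each, 66.0 percent of the genes that rose were higher (51.0 percent of all) and 69.0 percent of those that fell were lower (49.0 percent of all). At 2 h, 57.4 percent of the genes that rose were higher (48.6 percent of all) and 51.2 percent of those that fell were lower, close to the 51.3 percent of all tested genes. Genes of the NF-kB pathway were already higher at the early times: Birc3 differed by 0.85 at 2 h and 1.74 at 6 h, and Nfkbie by 0.91 and 1.51. Nfkb2 differed by 0.37 at 2 h and 1.3 at 6 h. The mitosis gene Bub1b differed by -0.03 and -0.20. These differences have no replicate and no test.

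The smooth muscle identity of the cells was checked with 7 markers, of which all 7 were tested and 0 were called (median -0.18). All 7 were lower in the combination, from -0.52 to -0.02, and 3 of them were lower in 3 of 3 pairs. With TNF alone over PBS, 4 of the 7 had fallen. The summed signal of the 7 markers was 30177 to 39034 in the combination and 36068 to 40779 with TNF alone. Mean signals were 11659 and 13162 for Tagln, but 1485 and 1615 for Myh11, 1396 and 1958 for Cnn1 and 767 and 872 for Lmod1. Markers of other cell types covered a wide range of signals. Dim ones were Cd3e of T cells, with means of 32.1 in the combination and 26.5 with TNF alone, Itgam of myeloid cells (20.3 and 28.1), Vwf of endothelium (34.4 and 25.3) and Adipoq of adipocytes (14.4 and 11). Others were well above the array medians, among them the macrophage markers Lyz1 (1128 and 1060), Lyz2 (906 and 891) and Csf1r (794 and 738), the endothelial markers Eng (1595 and 1525), Erg (598 and 748) and Emcn (511 and 487), Fabp4 of adipocytes (601 and 614) and Cd8a of T cells (459 and 449.6). Brighter still were the fibroblast markers Pdgfra (4267 and 2838), Cd34 (3751 and 3224), Thy1 (2257 and 2338) and Dcn (1675 and 1603), while Pi16 of fibroblasts was dim (18.7 and 15.3). Summed macrophage markers were 2296 to 7967 in the combination and 3186 to 6215 with TNF alone (9 of 13 tested, 0 called, median -0.07), and summed endothelial markers 3211 to 5932 and 3091 to 5928 (10 of 14 tested, 0 called, median 0.08). Summed fibroblast markers were 11274 to 16582 in the combination and 10108 to 12560 with TNF alone, and 2 of 8 rose, Pdgfra (0.55 ± 0.10, adjusted p = 0.0104) and Cd34 (0.21 ± 0.05, adjusted p = 0.0424); their part in the other results was not tested. Summed lymphocyte markers were 628 to 1192 in the combination and 653 to 1155 with TNF alone, and adipocyte markers 806 to 1101 and 678 to 1305; each list had 2 tested members and 0 calls. The ratios of 3' to 5' control probe sets were 0.761 to 0.785 in the combination and 0.747 to 0.760 with TNF alone for Gapdh, and 1.27 to 1.53 in the combination and 1.20 to 1.3 with TNF alone for Actb. The share of signal in the 100 brightest probe sets was 5.26 to 5.84 percent in the combination and 5.39 to 6.24 percent with TNF alone, and array medians were 109.1 to 137.9 and 107.5 to 133.0.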

How the data were processed

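RNA of each sample was hybridised to 1 Affymetrix mouse array of 45101 probe sets. The deposited values are linear signal intensities, made by the authors with GCOS 1.4, per the submitters' processing notes, and each array has a mean near 500 after the highest and lowest 2 percent of values are removed. How probes were summarized and background was corrected is a step the sources used here do not give.

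From these, log2(signal + 10.2) was computed without further normalization; 10.2 is the 10th percentile of the 24 h values. To be tested, a probe set had to exceed its array's median on 3 or more of the 12 arrays numbered 1 to 3 at 24 h. Of the probe sets 34945 have 1 gene, 932 several and 9160 none listed; the brightest passing probe set stood for each of 12278 genes. Of the listed genes, 52 had no probe set naming them alone. Control probe sets (64) were left out.

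The tests were run in limma 3.58.1 (R 4.3.3), with group and number as terms (6 residual degrees of freedom), a variance trend and Benjamini-Hochberg adjustment over all tested genes; SEs are limma's, and "rose" and "fell" mean an adjusted p under 0.05. The script was checked on simulated data. The labels give groups the same numbers. After removal of the group means, the 18 pairs of arrays of 1 number correlated at 0.50 to 0.73 and the 36 other pairs at -0.50 to 0.00. Every same-number pair thus lay above 0.1, and the numbers pair the arrays. Removal of the means makes the deviations within a group sum to 0, so the negative values of the other pairs are partly set by it.

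The comparison, the 37 gene lists and the settings were chosen with earlier results of these data known. Named by rule were the 20 largest rises and 12 largest falls among called genes, for each list the 3 members of smallest adjusted p, all tested organizer, non-canonical NF-kB and immunoproteasome genes, the 5 interaction rises and falls of smallest p and the defining markers; other list members were named after their values were seen. Lists are described by counts and medians, without a test. Probe sets were named from GEO's platform annotation. Promoter windows are RefSeq's.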

Additional observations from a re-analysis of the deposited data

Results flagged for a closer look

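The effect of the antibody differed between cells with and without TNF for 11 genes, by the interaction term of the limma fit at an adjusted p under 0.05. Each value below is the log2 change in the presence of TNF minus the change in its absence. The NF-kB inhibitor gene Nfkbia differed by -0.90, on signals of 14595 to 18172 in the combination and 12787 to 16733 with TNF alone. Its 4 other passing probe sets, with mean signals of 597 to 7663, differed by -0.16 to -1.23. The largest signal of these 6 arrays was 20140 to 25342, and whether bright signals are compressed was not tested.

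The other genes with a role in inflammation were the adhesion molecule gene Vcam1, at -0.79 (-0.56 and -0.85 on 2 other probe sets), the T cell chemokine gene Ccl5, at -1.68 (from -2.35 to -0.48 over the alternatives, with PBS signals of 10.1 to 17 near the pseudocount of 10.2), the MHC class I gene H2-K1, at -0.83 (-0.18 to -1.42 on 3 others), and the inflammatory caspase gene Casp4, at -1.24. The metal-binding metallothionein gene Mt2 differed by -0.90 and the annexin gene Anxa8 by -0.89 (-0.83 on a second probe set). Clca3a2, of the calcium-activated chloride channel regulator family, differed by -2.0 (-2.08 on a second probe set). Ctps, which encodes CTP synthase, differed by -0.52, the membrane protein gene Tmem176b by -0.51 and Itpripl2 by -0.40. The direction was the same under every alternative run, of which there were 19 for Ccl5 and 20 for each of the others. The call was kept under 18 alternatives for Nfkbia, 15 for Clca3a2, 12 for Anxa8 and H2-K1 and 11 for Casp4 and Vcam1. It was kept under 5 for Ctps, Itpripl2 and Mt2, 4 for Tmem176b and 3 for Ccl5.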

How the results depend on the processing

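The counts of calls depend on the pairing by number. For the combination against TNF alone (324 rose, 287 fell), the fit without the block gave 5 and 2 on the 12 arrays and 6 and 0 on all 15 arrays of 24 h. The 6 arrays alone gave 179 falls, scaling to equal medians 189 rises, and a fit without the variance trend 156 and 82. Leaving out 1 number or 1 array gave 18 to 251 rises and 9 to 232 falls. For anti-LTBR alone (205 and 116), the fit without the block gave 22 and 0, and 16 and 0 on all 15 arrays, the block on all 15 arrays gave 318 and 277, equal medians 33 falls and no variance trend 116 and 40; leaving out a number or an array gave 56 to 210 and 10 to 126. For the interaction (0 higher, 11 lower), the lower genes numbered 0 without the block on 12 or 15 arrays, 2 with the block on 15, 7 with quantile normalization, 6 (and 1 higher) without a filter, 1 without the trend, 7 with probe sets averaged and 1 to 7 with a number or an array left out, with 0 higher. The cause of these shifts was not tested. Of the 93 named genes called, 4 were called without the block, 92 with a pseudocount of 1, 93 with one of 50, 84 after quantile normalization and 9 without number 1. Itga8, Casp8, Mef2c, Cd34, Tank and Olfr870 lost their calls in each of 9 runs with a number or an array left out. By contrast, Cxcl10, Ccl9 and Stx11 lost theirs under 0 settings. No call of a named gene turned into a call in the other direction. Klf4 had the opposite sign without the block on all 15 arrays, at 0.055, where it was not called.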

Other observations

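Many genes called for the addition of the antibody to TNF were called with neither agent alone over PBS, namely 175 of the 324 that rose and 176 of the 287 that fell. The B cell chemokine gene Cxcl13 is one of them, with 1.08 for the addition, 0.25 for the antibody alone and 0.59 for TNF alone. Agents that each pass or miss a threshold are not thereby shown to act differently, and the interaction term called 0 of the genes that rose with a larger effect in the presence of TNF. Both agents alone had moved 66 of the genes that rose and 52 of those that fell in the same direction. TNF alone over PBS, which shares the TNF arrays, had raised 80 and lowered 27 of the genes that rose (median 0.09), and raised 3 and lowered 82 of those that fell (median -0.14).

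The 5 genes with the smallest interaction p on the side of a larger effect with TNF were Prc1, Smc2, Tube1, Haus8 and 1700023A20Rik, none of which was called. Prc1 and Haus8 belong to the machinery of the mitotic spindle, Smc2 to condensin and Tube1 encodes epsilon tubulin of the centriole. The difference was 0.68 for Prc1, 0.54 for Smc2, 0.72 for Tube1, 0.67 for Haus8 and 1.39 for 1700023A20Rik.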
